A study of Mus musculus with 16 samples.

Results

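The uptake of whole milk proteins by the suckling intestine was examined through 5 genes, *Cubn*, *Amn*, *Dab2*, *Lrp2* and *Fcgrt*, which were chosen by name from the 24421 genes listed in both single-cell matrices. The cells came from crypt-enriched small intestine of outbred mice at postnatal day 16, before weaning is complete. By the paper's methods, crypts were isolated as for its organoids, a protocol that takes the proximal small intestine (duodenum and jejunum). The levels below are therefore not those of the whole small intestine. WT mice are labelled only as wild type. ROBO mice were heterozygous for the ROBO Crainbow transgene, which gives an inert fluorescent label before recombination and, after it, RSPO3, a secreted R-spondin that potentiates Wnt signalling, or 1 of 2 PTPRK:RSPO3 fusions, and heterozygous for Villin-Cre, which recombines the transgene in the intestinal epithelium. A ROBO epithelium is therefore a mosaic, and the cells are not separated here by the gene they express. All mice were untreated, and the number of mice per genotype was not given in the sources used here. The labels list 8 samples per genotype from 2 ddSEQ cartridges, but the cell names show only the genotype, so each genotype was 1 pooled sample of 1348 WT or 1249 ROBO cells. No test between genotypes was therefore possible, and every interval below is a 95% interval that covers counting error only.

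Suckling mammals take in much of their dietary protein whole. Cubilin (*Cubn*) is a large peripheral membrane receptor that binds many ligands, among them the complex of intrinsic factor and vitamin B12, and it reaches the apical surface only together with the transmembrane protein amnionless (*Amn*). Megalin (*Lrp2*) is a giant member of the LDL receptor family that works with cubilin in the kidney proximal tubule, and Dab2 is the clathrin adaptor that binds the tails of these receptors. The neonatal Fc receptor FcRn, whose heavy chain is encoded by *Fcgrt* and pairs with beta-2-microglobulin (*B2m*), carries maternal IgG from milk across the enterocytes of suckling rodents.

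The 5 genes lie on 4 chromosomes (GENCODE M21, GRCm38). *Cubn* occupies chr2:13276338-13491813 on the minus strand, *Lrp2* chr2:69424340-69586065 on the minus strand, *Fcgrt* chr7:45092990-45103851 on the minus strand, *Amn* chr12:111271095-111276426 on the plus strand and *Dab2* chr15:6299788-6440712 on the plus strand. All are protein-coding. A noncoding gene of the opposite strand covers the 3′ ends of *Cubn* (*Gm13270*) and of *Fcgrt* (*Gm45669*). Neither is a row of the matrices, and how the counting treated strand is not given in the sources used here.

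Promoters of 4 of the genes are shown. The receptor pair *Cubn* and *Amn* had their highest levels in different zones, *Fcgrt* was the most abundant of the 5 and *Lrp2* was not detected in the epithelium. Each runs 5′ to 3′ on the gene's strand from 250 bases before to 50 bases after the RefSeq start site (GRCm38.p6), and capitals mark CG dinucleotides.
Cubn: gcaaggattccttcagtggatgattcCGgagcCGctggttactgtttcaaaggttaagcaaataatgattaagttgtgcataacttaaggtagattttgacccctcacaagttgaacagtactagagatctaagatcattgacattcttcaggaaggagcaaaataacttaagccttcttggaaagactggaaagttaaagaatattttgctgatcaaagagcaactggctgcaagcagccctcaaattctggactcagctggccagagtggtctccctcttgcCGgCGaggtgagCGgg
Amn: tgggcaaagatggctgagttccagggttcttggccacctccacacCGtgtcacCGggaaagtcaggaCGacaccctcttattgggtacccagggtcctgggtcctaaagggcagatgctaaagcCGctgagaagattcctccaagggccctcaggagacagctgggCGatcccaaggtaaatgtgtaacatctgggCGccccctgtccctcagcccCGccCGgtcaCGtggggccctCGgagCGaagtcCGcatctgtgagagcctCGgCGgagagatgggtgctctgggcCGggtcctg
Fcgrt: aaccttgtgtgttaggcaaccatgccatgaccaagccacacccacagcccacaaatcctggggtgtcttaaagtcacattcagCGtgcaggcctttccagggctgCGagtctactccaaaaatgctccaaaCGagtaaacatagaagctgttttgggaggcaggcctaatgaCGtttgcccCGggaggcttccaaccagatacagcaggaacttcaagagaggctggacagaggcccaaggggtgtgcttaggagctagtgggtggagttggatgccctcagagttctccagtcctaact
Lrp2: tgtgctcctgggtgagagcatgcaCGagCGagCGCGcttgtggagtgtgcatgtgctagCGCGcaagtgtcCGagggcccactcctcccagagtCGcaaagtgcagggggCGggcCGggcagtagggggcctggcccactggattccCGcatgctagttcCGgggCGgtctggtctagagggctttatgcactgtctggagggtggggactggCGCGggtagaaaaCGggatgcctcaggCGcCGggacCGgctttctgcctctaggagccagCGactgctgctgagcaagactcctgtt
The windows are chr2:13491827-13492126 for *Cubn*, chr12:111270846-111271145 for *Amn*, chr7:45103773-45104072 for *Fcgrt* and chr2:69585980-69586279 for *Lrp2*. The *Amn* window held 15 CG dinucleotides and the *Lrp2* window 20, and the *Cubn* and *Fcgrt* windows 5 each. Among all 32851 RefSeq mouse promoter windows of this length the median was 7, 34.6% held at least 15, 26.5% at least 20 and 62.0% at least 5. *Dab2* has 2 listed start sites, with 2 CG dinucleotides at chr15:6299539-6299838 and 19 at chr15:6386498-6386797, and 3′ reads do not tell which was used. Searched on both strands, none of the 6 windows held the TATA box letters TATAAA, found in 13.6% of all windows, or the HNF4 letters CAAAGTCCA, found in 0.475%. The HNF1 letters GTTAAT, found in 7.10% of all windows, occurred once, in the second *Dab2* window. The GATA letters AGATAA, found in 11.2%, occurred once, in the first *Dab2* window, and the CDX letters TTTATG, found in 11.9%, once, in the *Lrp2* window. None of these motifs was in the windows of *Cubn*, *Amn* or *Fcgrt*.

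Counts of unique molecular identifiers (UMIs), each standing for 1 captured mRNA molecule, ranged from 533 to 11908 per WT cell and from 463 to 13756 per ROBO cell, with medians of 1492 and 1610. Levels are given as UMIs of a gene per 10000 UMIs of the same cells. Clustering, run without the 5 genes, gave 13 clusters, and those named from marker genes included 915 enterocyte-like cells. Bottom enterocyte-like cells (149 WT, 131 ROBO) were led by *Gsdmc4*, *Reg1*, *Dmbt1*, *Gsdmc2* and *Ms4a18*, and top enterocyte-like cells (99 WT, 129 ROBO) by *Gpx3*, *Mfi2*, *Ada*, *Ctsl* and *Tdrp*. The middle zone comprised 2 clusters. The first was led by *Gm2061*, *Lect2*, *Cybrd1*, the lactase gene *Lct* and *Mgat4c* (136 WT, 141 ROBO), and the second by the sucrase-isomaltase gene *Sis*, *Reg3a*, *Aldh1a1*, *Papss2* and *Fabp1* (69 WT, 61 ROBO). They are called Lct-led and Sis-led below. A cluster led by *Cxcl10*, *Atf3*, *Fosb*, *Plk3* and *Epha2* (107 WT, 73 ROBO) and one led by *Myl7*, *Sult1a1*, *Reg3g*, *Msx1* and *Reg3b* (69 WT, 63 ROBO) were left unnamed. The Cxcl10-led cells made up 7.94% of WT and 5.84% of ROBO cells. A further 8 cells with at least 5 of 13 fibroblast markers were set apart.

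In the zones, *Cubn* was highest in the Lct-led middle cells and lower at the top, whereas *Amn*, *Dab2* and *Fcgrt* were highest at the top. *Lrp2* was not detected in any epithelial cell. Each of these orders was seen in WT and in ROBO. Of 13 ratios of ROBO over WT within single zones, the interval of 1, that of *Amn* in Sis-led cells, left out 0. Because the zones were named from the same cells, zone differences are descriptions with no test.

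**Figure D1:**
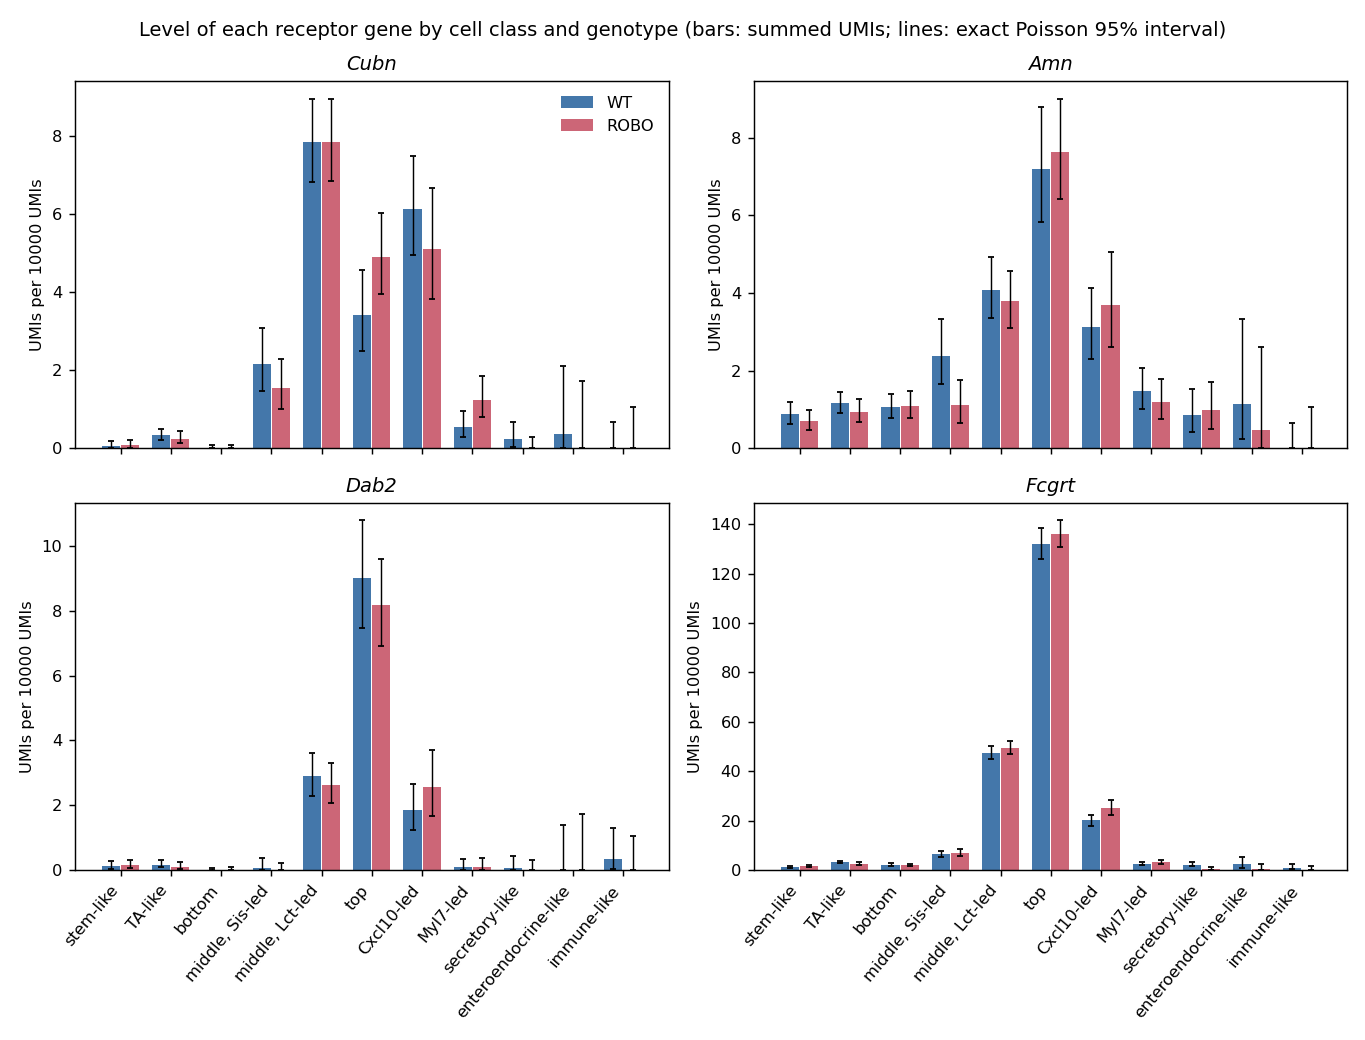
Level of *Cubn*, *Amn*, *Dab2* and *Fcgrt* (UMIs per 10000 UMIs, vertical axis, linear, from 0 and scaled per panel) in 11 cell classes (horizontal axis) of WT (blue) and ROBO (red) cells. Bars are summed UMIs and lines exact Poisson 95% intervals. *Cubn* is tallest in the Lct-led middle cells and the other 3 genes in the top cells.

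*Cubn* had 425 UMIs in WT and 435 in ROBO, and 51.0% of all its UMIs lay in the Lct-led middle cells. There its level was 7.84 UMIs per 10000 (6.82 to 8.96) in WT cells and 7.86 (6.86 to 8.95) in ROBO. In top cells it was 3.41 (2.49 to 4.56) in WT cells and 4.91 (3.95 to 6.03) in ROBO, and in Sis-led middle cells 2.17 (1.48 to 3.08) and 1.55 (1.00 to 2.29). The Lct-led intervals did not overlap those of the top or Sis-led cells in either genotype, while the top and Sis-led intervals overlapped in WT only. No *Cubn* UMI was found in the 280 bottom cells, which allows up to 0.0362 per 10000 at 3 counts. The *Cubn* level in the pooled middle cells was thus at least 88.8-fold that of bottom cells in WT and at least 70.3-fold in ROBO, each against 3 counts over the group. Top cells had 0.435 times the Lct-led level in WT, a log2 ratio of -1.20 (-1.70 to -0.73), and 0.625 times in ROBO, a log2 ratio of -0.68 (-1.05 to -0.32).

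*Amn*, the partner that carries cubilin to the surface, was found more widely. Its UMIs numbered 497 in WT and 460 in ROBO, and 62.3% of them lay in enterocyte-like cells. From bottom to top its level per 10000 UMIs in WT was 1.06 (0.782 to 1.41) in bottom, 2.38 (1.65 to 3.33) in Sis-led, 4.08 (3.36 to 4.92) in Lct-led and 7.19 (5.82 to 8.79) in top cells. In ROBO the levels were 1.09 (0.780 to 1.47), 1.12 (0.661 to 1.76), 3.79 (3.11 to 4.57) and 7.63 (6.42 to 9.01). Top and Lct-led cells were therefore apart in both genotypes, and bottom and Sis-led cells overlapped in ROBO only. Over both genotypes the top level was 6.94 times that of bottom cells, a log2 ratio of 2.80 (2.44 to 3.16). *Amn* was also detected in crypt cells. Stem-like cells held 0.796 *Amn* UMIs per 10000 (0.624 to 1.00), with enterocyte-like cells as a whole at 3.73 times that level, and transiently amplifying-like cells 1.07 (0.883 to 1.28). Neighbouring stem-like and bottom cells did not differ beyond counting error, with a log2 ratio of bottom over stem-like of 0.43 (-0.03 to 0.90). For *Cubn* the stem-like level was 0.0763 (0.0307 to 0.157), from 7 UMIs, and the transiently amplifying-like level 0.298 (0.205 to 0.419).

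*Dab2*, the adaptor, was found mostly in top and Lct-led middle cells. Outside the zones, stem-like cells held 13 of its UMIs, transiently amplifying-like cells 16 and Cxcl10-led cells 56. It had 252 UMIs in WT and 268 in ROBO, of which 51.7% were in top and 29.8% in Lct-led middle cells. Its level in top cells was 9.01 per 10000 UMIs (7.47 to 10.8) in WT cells and 8.18 (6.92 to 9.60) in ROBO. In Lct-led cells it was 2.91 (2.30 to 3.62) in WT cells and 2.64 (2.08 to 3.31) in ROBO. Sis-led cells held 1 *Dab2* UMI in WT and 0 in ROBO, and bottom cells held 0 in both. Top cells thus had 3.10 times the Lct-led level in each genotype, with a log2 ratio of 1.63 (1.21 to 2.06) in WT and 1.63 (1.22 to 2.05) in ROBO. Against the limit of 3 counts in bottom cells, the top level was at least 136-fold higher in WT and at least 103-fold higher in ROBO.

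*Fcgrt* was by far the most frequently counted of the 5, with 3911 UMIs in WT and 4654 in ROBO. Gene length does not scale a 3′ count, but capture may differ between genes, so levels are compared within each gene. *Fcgrt* reached 132 UMIs per 10000 (126 to 138) in WT top cells and 136 (131 to 142) in ROBO top cells. By UMIs it ranked 4 among all genes in top cells of both genotypes and 7 in the Lct-led cells of each. Lct-led cells held 47.5 (45.0 to 50.2) in WT and 49.5 (47.0 to 52.1) in ROBO, Sis-led cells 6.44 (5.19 to 7.90) and 7.01 (5.77 to 8.42), and bottom cells 2.25 (1.84 to 2.74) and 1.96 (1.54 to 2.46). No neighbouring zones overlapped in either genotype. The top level was 58.6 times the bottom level in WT, a log2 ratio of 5.87 (5.58 to 6.17), and 69.3 times in ROBO, a log2 ratio of 6.12 (5.78 to 6.47). Among single top cells, WT cells held 0 to 78 *Fcgrt* UMIs with a median of 15, and ROBO cells 1 to 64 with a median of 15.

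*Lrp2* had 0 UMIs in WT and 1 in ROBO, and that UMI lay in 1 of the 8 cells with fibroblast markers. The enterocyte-like cells, with 0 *Lrp2* UMIs, allow up to 0.0149 per 10000 at 3 counts. Megalin transcripts were therefore not detectable at this depth in cells that together held 630 *Cubn*, 596 *Amn* and 425 *Dab2* UMIs. The same 8 cells held 3 *Dab2* and 5 *Fcgrt* UMIs and none of *Cubn* or *Amn*.

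Read against all genes, the 4 detected members stood as follows. For middle over bottom cells, 644 of 3454 genes with at least 100 UMIs in those cells (18.6%) were at least 1.5-fold higher. *Amn* and *Fcgrt* were among them, with log2 ratios of 1.55 (1.204 to 1.92) and 4.00 (3.78 to 4.22). *Cubn*, with 495 UMIs in middle cells, and *Dab2*, with 156, had 0 in bottom cells and reached 100 UMIs through the middle cells alone, so this filter fixed their direction and they are not counted. For Lct-led over Sis-led cells, 310 of 1679 genes (18.5%) were at least 1.5-fold higher. The log2 ratios of the members there were 2.09 (1.69 to 2.52) for *Cubn*, 1.201 (0.76 to 1.67) for *Amn* and 2.85 (2.64 to 3.06) for *Fcgrt*. That of *Dab2*, 6.40 (3.90 to 11.71), stands against a single Sis-led UMI, and its direction too was fixed by the filter. For top over middle cells, 11.6% of 2232 genes were at least 1.5-fold higher and 39.1% at least 1.5-fold lower. Of the members, 3 of 4 were higher, with log2 ratios of 1.24 (0.98 to 1.499) for *Amn*, 2.24 (1.95 to 2.53) for *Dab2* and 1.99 (1.92 to 2.06) for *Fcgrt*, while *Cubn* had -0.42 (-0.71 to -0.14) and none was 1.5-fold lower. The median log2 ratio over all these genes was -0.20 for middle over bottom and -0.36 for top over middle. *Lrp2* did not reach 100 UMIs in any comparison.

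The levels were also read along a score, without cluster borders. When the 915 enterocyte-like cells were ranked by a score of top minus bottom marker genes, without the 5 members, and divided into 5 groups of 183, numbered from the bottom-most, *Cubn* had 0 UMIs in group 1, 0.697 per 10000 (0.483 to 0.974) in group 2, 6.48 (5.68 to 7.35) in group 3, 8.52 (7.49 to 9.64) in group 4 and 4.07 (3.34 to 4.90) in group 5. *Dab2* was 0 in group 1, 0.205 (0.0984 to 0.377) in group 2, 1.04 (0.735 to 1.43) in group 3, 5.08 (4.29 to 5.96) in group 4 and 8.50 (7.44 to 9.68) in group 5. On this linear scale the largest difference between neighbouring groups lay between groups 2 and 3 for *Cubn* and between groups 3 and 4 for *Dab2*, although the *Dab2* intervals of groups 2 and 3 did not overlap either. *Fcgrt* was higher in each group than in the one before, from 1.94 (1.60 to 2.33) through 5.07, 26.3 and 78.2 to 139 (134 to 143). *Amn* went from 0.876 (0.654 to 1.15) through 1.76, 3.17 and 5.14 to 7.12 (6.15 to 8.21). *Lct* peaked with *Cubn* in group 4, at 45.2 (42.8 to 47.7), and was 30.4 (28.3 to 32.6) in group 5. The median depth was 3076 UMIs per cell in group 1 and 1262 in group 5, and its part in these levels was not tested.

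**Figure D2:**
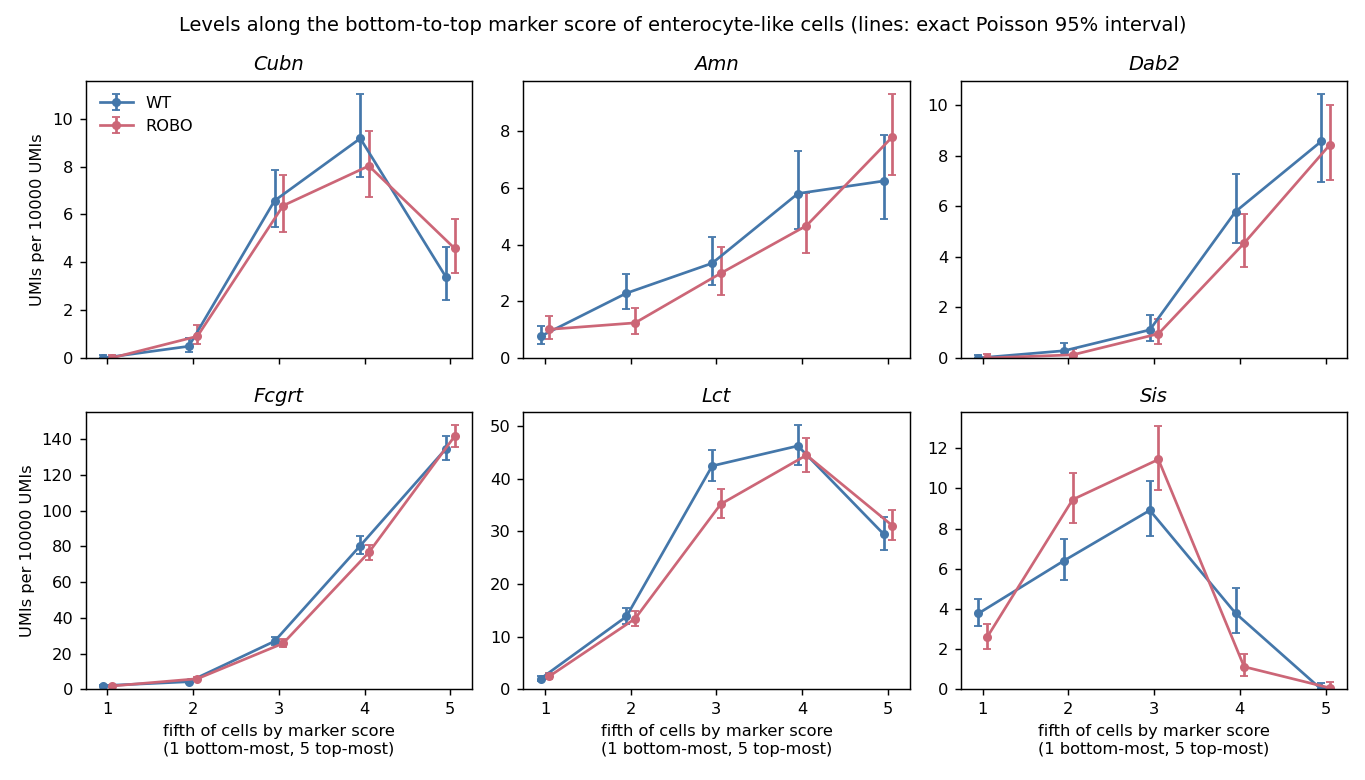
Level (UMIs per 10000 UMIs, vertical axis, linear) of the 4 detected members and of *Lct* and *Sis* in 5 equal groups of the enterocyte-like cells ordered by a marker score (horizontal axis, 1 bottom-most to 5 top-most), for WT (blue) and ROBO (red). Points are summed UMIs and lines exact Poisson 95% intervals. *Cubn* and *Lct* peak in group 4, *Amn*, *Dab2* and *Fcgrt* in group 5, and *Sis* in group 3.

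The same shift could be followed inside the Lct-led cluster. Its 277 cells were divided by the score into 3 groups. Between the lowest and the highest of these, *Dab2* went from 1.22 (0.81 to 1.78) to 5.10 (4.08 to 6.30) per 10000, *Fcgrt* from 19.6 (17.8 to 21.5) to 89.4 (84.9 to 94.0) and *Amn* from 3.17 (2.47 to 4.00) to 5.28 (4.24 to 6.50). *Cubn* was 5.89 (4.92 to 6.99) in the lowest group, 9.35 (7.95 to 10.9) in the middle group and 8.90 (7.54 to 10.4) in the highest. The *Cubn* intervals of the middle and highest groups overlapped, so the lower level seen in top cells had no counterpart within this cluster.

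The share of cells with a UMI was compared after each cell had been thinned to 912 UMIs, the lower quartile of depth, which left out 364 WT and 285 ROBO cells. *Fcgrt* was then found in 152 of 153 top cells (99.3%, 96.4 to 99.98%) and in 189 of 229 Lct-led cells (82.5%, 77.0 to 87.2%). *Cubn* was found in 50.2% of Lct-led cells (43.6 to 56.9%) and 24.8% of top cells (18.2 to 32.5%). *Dab2* showed the opposite order, with 21.4% (16.3 to 27.3%) and 52.3% (44.1 to 60.4%), as did *Amn*, with 30.6% (24.7 to 37.0%) and 49.7% (41.5 to 57.9%). Without thinning the top-cell shares were 99.1% for *Fcgrt*, 35.5% for *Cubn*, 57.5% for *Dab2* and 56.6% for *Amn*. By genotype, *Cubn* was found after thinning in 58 of 116 WT Lct-led cells and 57 of 113 ROBO ones.

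**Figure D3:**
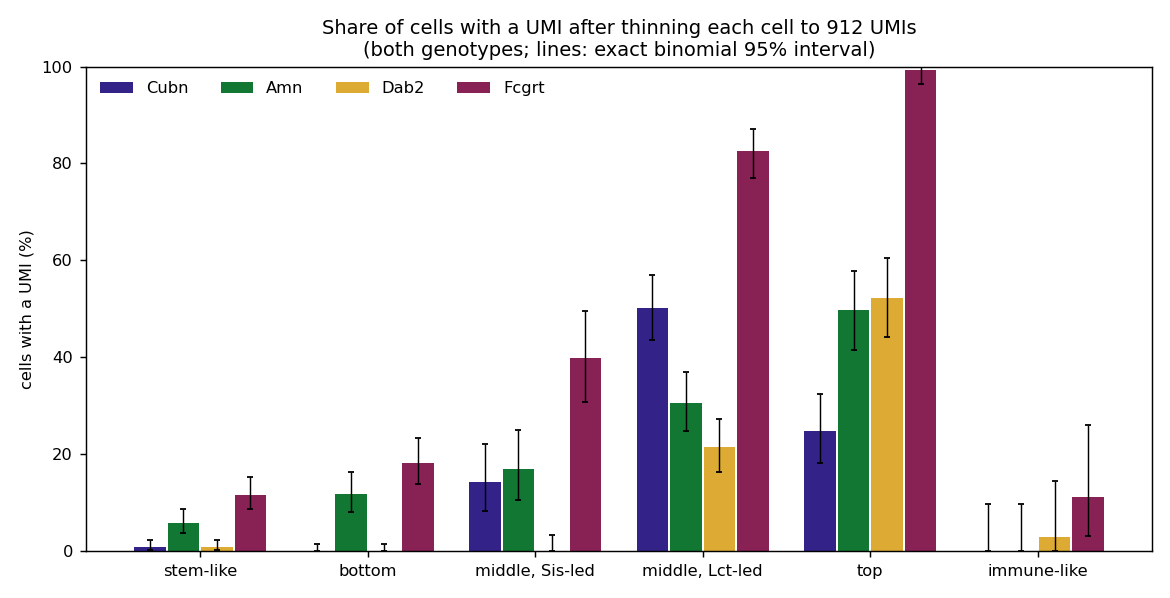
Percent of cells with a UMI of each gene (vertical axis, linear, from 0) after thinning every cell to 912 UMIs, in 6 cell classes (horizontal axis), over both genotypes. Lines are exact binomial 95% intervals. *Fcgrt* reaches 82.5% in Lct-led and 99.3% in top cells, and *Cubn* and *Dab2* show opposite orders in these 2 classes.

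Immune-like cells, led by *Gzma* and *Ccl5*, served as the background for free RNA because they should lack *Cubn* and *Amn*. Whether they express *Fcgrt* themselves was not tested, so for *Fcgrt* they are only a comparison. After thinning, 0 of 36 held *Cubn* or *Amn*, which allows a share of up to 8.33%, and 4 of 36 held *Fcgrt* (11.1%, 3.11 to 26.1%). The *Fcgrt* share of stem-like cells, 11.6% (8.65 to 15.2%), lay within that interval, so it does not set stem-like apart from immune-like cells. In summed counts, 141 stem-like against 7 immune-like *Fcgrt* UMIs gave a log2 ratio of 0.99 (-0.09 to 2.33), with 0.35 (-0.85 to 1.85) for WT alone and 2.57 (0.05 to 7.89) for ROBO alone, which rests on 1 immune-like UMI. The median depth before thinning was 1749.5 UMIs in immune-like and 1116.5 in stem-like cells. For *Amn*, the stem-like share of 5.82% (3.73 to 8.61%) lay under the limit that 0 of 36 allows, so the share alone does not set *Amn* apart from background. In summed counts, 73 *Amn* UMIs in stem-like cells gave a level at least 2.40-fold that of immune-like cells, against 3 counts in the latter. By genotype this bound was 1.64-fold in WT and 0.821-fold in ROBO, so in ROBO alone it does not place stem-like above immune-like cells. The *Amn* UMIs per *Lct* UMI numbered 1.03 in stem-like and 0.298 in bottom cells, against 0.0968 in Lct-led and 0.224 in top cells, whereas for *Cubn* they numbered 0.0986 in stem-like cells against 0.193 in Lct-led cells. Bottom cells, with a median of 2744.5 UMIs, held no *Cubn* or *Dab2* but 299 *Lct* UMIs.

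Markers of other cell types were summed in the zones. For 18 immune markers, the level was 0.0695 to 0.248 UMIs per 10000 in the 8 zone and genotype groups, with *Cd3e*, *Cd3g*, *Cd3d*, *Cd52*, *Nkg7* and *Rac2* at 0 in all. Of 10 macrophage and dendritic cell markers, 3 had UMIs in WT top cells and 1 in ROBO top cells, with summed levels of 2.80 and 2.94 per 10000, against 0.147 to 0.464 in the other zones. In ROBO top cells these were 54 UMIs of *Csf1r*, and in WT top cells 37 UMIs of *Csf1r*, *Cd68* and *Lyz2*, while the other 7 listed genes, *Adgre1*, *C1qa*, *C1qb*, *Cd74*, *H2-Aa*, *Mrc1* and *Tyrobp*, were at 0 there in both genotypes. Of 13 fibroblast markers, 1 or 2 had UMIs in top cells, with summed levels of 2.27 in WT and 1.199 in ROBO against 0 to 1.36 in the other zones, and the collagen genes *Col1a1*, *Col1a2*, *Col3a1*, *Col6a1* and *Col6a2* were at 0 there. The 8 endothelial markers summed to 0 in top cells and to at most 0.248 elsewhere. Goblet and Paneth markers were higher than these and, like *Amn*, *Dab2* and *Fcgrt*, highest in top cells. The 9 goblet markers, 7 to 9 of them with UMIs in each group, summed to 14.8 per 10000 in WT and 13.8 in ROBO top cells against 7.74 to 9.72 in the other zones. The goblet transcription factor gene *Spdef* was at 0 outside bottom cells. The 9 Paneth markers, 6 to 9 of them with UMIs, summed to 6.21 in WT and 4.80 in ROBO top cells against 1.91 to 3.89 elsewhere. The part of these markers in the members' levels was not tested.

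Finding *Cubn*, *Amn* and *Dab2* together in a cell was limited by depth. In thinned Lct-led cells, 10 of 229 (4.37%) held UMIs of all 3, 56 (24.5%) of 2, 92 (40.2%) of 1 and 71 (31.0%) of none. In top cells the counts were 10 (6.54%), 49 (32.0%), 66 (43.1%) and 28 (18.3%) of 153. Among Lct-led cells with a *Cubn* UMI, 31 of 115 also held *Dab2* (27.0%, 19.1 to 36.03%), against 18 of 114 without one (15.8%, 9.63 to 23.8%). For *Amn* the shares were 33.0% (24.6 to 42.4%) with *Cubn* and 28.1% (20.1 to 37.3%) without. In top cells, *Dab2* was found in 55.3% (38.3 to 71.4%) of cells with and 51.3% (41.8 to 60.7%) of cells without *Cubn*. *Fcgrt* in Lct-led cells was found in 89.6% (82.5 to 94.5%) of cells with *Cubn* and in 75.4% (66.5 to 83.0%) of those without. The intervals of each pair overlapped, and these are cells of 2 pooled samples, not replicates.

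The genotypes were compared to ask whether an epithelium mosaic for R-spondin oncogenes held different levels of these genes. Over all enterocyte-like cells, *Cubn* had 2.89 UMIs per 10000 (2.57 to 3.25) in WT against 3.38 (3.03 to 3.76) in ROBO, a log2 ratio of ROBO over WT of 0.22 (-0.01 to 0.45). *Amn* had 2.88 (2.56 to 3.24) and 3.05 (2.72 to 3.41), a log2 ratio of 0.08 (-0.15 to 0.32). *Dab2* had 1.99 (1.72 to 2.29) and 2.24 (1.96 to 2.55), a log2 ratio of 0.17 (-0.11 to 0.45). *Fcgrt* had 32.3 (31.2 to 33.4) in WT against 40.7 (39.4 to 41.9) in ROBO, a log2 ratio of 0.33 (0.27 to 0.40). Of 3921 genes with at least 100 UMIs in these cells, 227 (5.79%) differed by at least 1.5-fold in either direction, and 0 of 4 members did. The median log2 ratio of the 4 was 0.20, beside -0.0037 over all these genes.

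Top cells, in which *Fcgrt* was highest, were 7.34% of WT cells (6.01 to 8.87%) and 10.3% of ROBO cells (8.70 to 12.2%). Within top cells the log2 ratio of *Fcgrt* was 0.04 (-0.04 to 0.13), within Lct-led cells 0.06 (-0.05 to 0.17), within Sis-led cells 0.12 (-0.29 to 0.53) and within bottom cells -0.20 (-0.65 to 0.25). With each of the 4 clusters given the same weight in both genotypes, the log2 ratio over all enterocyte-like cells was 0.05. The part of the top-cell share in the *Fcgrt* difference was not tested. Crypt enrichment of each preparation sets how many villus cells it holds, and this and genotype cannot be told apart.

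Within single zones, 13 ratios of ROBO over WT could be formed, 7 above 0 and 6 below. Their intervals held 0 in all but 1. The exception was *Amn* in Sis-led cells, with 34 UMIs in 30 of 69 WT cells and 18 UMIs in 12 of 61 ROBO cells, a log2 ratio of -1.09 (-2.00 to -0.23). The *Amn* ratios in the other zones were 0.04 (-0.60 to 0.67) in bottom, -0.11 (-0.50 to 0.29) in Lct-led and 0.09 (-0.30 to 0.48) in top cells. *Cubn* in top cells, with 45 UMIs in WT and 90 in ROBO, had a log2 ratio of 0.53 (-0.01 to 1.08), and in Lct-led cells, with 213 and 226, the ROBO level was 1.00 times that of WT (0.827 to 1.21). *Dab2* gave -0.14 (-0.50 to 0.22) in top and -0.14 (-0.61 to 0.33) in Lct-led cells. In Lct-led cells a ROBO level 1.5-fold below WT lies within the interval for *Dab2*, which reaches down to 0.654 times, but outside those for *Cubn* and *Fcgrt*. Among the classes outside the zones, 3 intervals left out 0. They were those of *Cubn* in Myl7-led cells, with 12 UMIs in WT and 24 in ROBO and a log2 ratio of 1.17 (0.11 to 2.30), of *Fcgrt* in secretory-like cells, with 29 and 7 UMIs and -1.97 (-3.41 to -0.75), and of *Fcgrt* in Cxcl10-led cells. These count UMIs that share cells, so the intervals are too narrow for a difference between mice. The share of all genes whose intervals leave out 0 in the same zones or classes was not counted. The exceptions are therefore not read as results about the members.

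**Figure D4:**
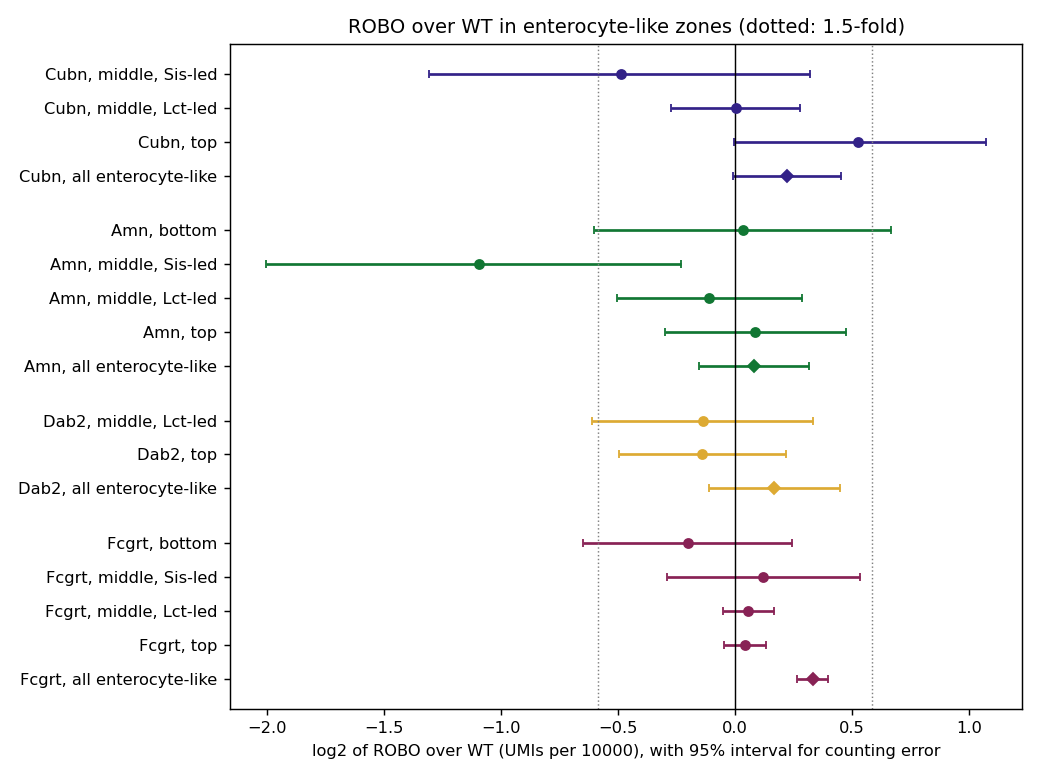
The log2 ratio of ROBO over WT (horizontal axis) of each gene in each enterocyte-like zone (circles) and over all enterocyte-like cells (diamonds), with 95% intervals for counting error. Dotted lines mark 1.5-fold. The *Fcgrt* diamond lies at 0.33 while its zone values lie between -0.20 and 0.12, and *Amn* in Sis-led cells is at -1.09.

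In the Cxcl10-led cluster, which expresses stress-responsive transcription factor genes, *Cubn* was 6.13 (4.96 to 7.48) in WT cells and 5.11 (3.84 to 6.67) in ROBO. *Amn* was 3.13 (2.31 to 4.14) and 3.69 (2.62 to 5.04) there, and *Dab2* 1.85 (1.24 to 2.66) and 2.55 (1.68 to 3.72). *Fcgrt* was 20.2 (18.0 to 22.5) and 25.3 (22.3 to 28.5), a log2 ratio of ROBO over WT of 0.32 (0.08 to 0.56). Its *Fcgrt* level was 0.458 times that of Lct-led cells over both genotypes, a log2 ratio of -1.13 (-1.26 to -0.998), against 0.729 times for *Cubn*, -0.46 (-0.73 to -0.19).

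Genes with the most similar pattern were named by Pearson correlation of log2(UMIs per 10000 + 1) over 24 sums of cluster and genotype with at least 20 cells, among 7458 genes with at least 100 UMIs. These sums share libraries and differ in depth, so the values are descriptions. Nearest to *Cubn* were *Slc7a15* (0.96), *Gm2061* (0.96), *Sgk1* (0.95), *Gda* (0.94) and *Adamtsl5* (0.94). Nearest to *Amn* were *Amdhd2* (0.95), *Neu1* (0.95), *Slc6a8* (0.94), *Cdhr2* (0.94), a protocadherin of the brush border, and *Fcgrt* (0.94). *Dab2* lay nearest to *Renbp* (0.99), *Slc17a5* (0.98), the lysosomal sialic acid transporter, *Smcp* (0.97), *Mamdc4* (0.96) and the folate receptor gene *Folr1* (0.96). *Fcgrt* lay nearest to *Mamdc4* (0.98), which encodes the apical endosomal protein endotubin, *Neu1* (0.97), the lysosomal sialidase, *Uap1l1* (0.97), *Mettl7b* (0.97) and *Slc40a1* (0.96). Between members, *Cubn* and *Fcgrt* gave 0.91, *Cubn* and *Amn* 0.85 and *Cubn* and *Dab2* 0.80, and *Amn* ranked 104 among all genes by likeness to *Cubn*.

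Other genes of protein uptake were taken from fixed lists, and those with at least 100 UMIs in enterocyte-like cells are counted. For zone ratios, the shares and medians over all genes rest on genes with at least 100 UMIs in the zones compared. The filters thus differ, and those shares are only a rough background for the lists. Of the receptor partners, 5 of 9 reached this. *B2m*, which pairs with FcRn, was 13.2 UMIs per 10000 in bottom, 32.5 in Sis-led, 42.3 in Lct-led and 63.6 in top cells, a log2 ratio of top over bottom of 2.27 (2.16 to 2.37). The corresponding log2 ratio of *Fcgrt* was 5.99 (5.77 to 6.21), and both genes followed the same order of zones. In ROBO over WT, *B2m* had a log2 ratio of 0.26 (0.19 to 0.33) over all enterocyte-like cells and 0.22 (0.09 to 0.36) within top cells. Within Lct-led cells it was 0.06 (-0.05 to 0.18). *Pdzk1*, a scaffold protein of the apical membrane, had a single UMI in bottom cells and 3.90 per 10000 in top cells, while the adaptor *Gipc1* had a log2 ratio of top over bottom of -2.16, and the motor *Myo6* had -0.28. Of 14 clathrin coat and AP-2 genes, 10 were counted, and between middle and top cells none moved 1.5-fold in either direction. Their median log2 ratio of top over middle was -0.29, near the -0.36 of all genes. *Cltb* and *Fcho2* had the highest log2 ratios of top over bottom, 1.10 and 1.05, and *Ap2m1* and the heavy chain *Cltc* the lowest, -0.82 and -0.72. Of 14 sorting and recycling genes, 10 were counted, with *Rab5c* (1.38) and *Rab11a* (1.36) highest and *Rab25* (-1.38) and *Vps35* (-0.25) lowest in top over bottom. *Rab11a*, a GTPase of recycling endosomes, had the highest ROBO over WT log2 ratio of this list, 0.55 (0.28 to 0.82). Within top cells its log2 ratio was 0.44 (-0.10 to 1.00) and within Lct-led cells 0.69 (0.21 to 1.18).

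The lysosome is where endocytosed protein is degraded. Of 24 lysosome genes 19 were counted, and 15 were at least 1.5-fold higher in top than in bottom cells and 1 was lower, with a median log2 ratio of 1.46. Of all 2371 genes with at least 100 UMIs in top and bottom cells, 17.9% were higher and 54.7% lower, with a median of -0.74. Against middle cells, 10 were higher and 1 lower, with a median of 0.61. Both counts of higher genes include *Ctsl* and *Lgmn*, with 611 and 223 UMIs in top cells and 7 and 11 in bottom cells. These genes reached 100 UMIs only through the top cells, so they add no support to the counts. The largest ratios were those of the cathepsin gene *Ctsl*, with 0.084 UMIs per 10000 in bottom, 1.09 in Lct-led and 19.4 in top cells, and of the legumain gene *Lgmn*, with 0.13, 0.84 and 7.07. *Psap* (-1.08) and *Ctsh* (-0.48) had the lowest log2 ratios of top over bottom. *Ctsl* was among the genes that defined the top cluster, so its level there is no separate result. Over all enterocyte-like cells *Ctsl* had the highest ROBO over WT ratio of the list, a log2 ratio of 0.76 (0.53 to 0.99). Within top cells *Ctsl* had 16.3 UMIs per 10000 in WT against 21.6 in ROBO, which gave a log2 ratio of 0.41 (0.16 to 0.65). Within Lct-led cells, with 33 and 28 UMIs, it was -0.32 (-1.10 to 0.45).

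Other uptake receptors took different courses. Of 13 genes 8 were counted. The polymeric immunoglobulin receptor *Pigr*, which carries IgA toward the lumen, had 23.6 UMIs per 10000 in bottom, 16.9 in Sis-led, 6.60 in Lct-led and 2.00 in top cells, the reverse order of *Fcgrt*. The transferrin receptor *Tfrc* had 6.65 in bottom and 0.539 in top cells. *Cd36*, a fatty acid receptor, had a log2 ratio of top over bottom of 5.55 and *Igf2r*, which sorts lysosomal enzymes, one of 1.49. Among ligands and carriers, *Tcn2*, which carries vitamin B12 in blood, was 2.06 in bottom and 5.90 in top cells, and *Apoa1*, a cubilin ligand, 3.75 and 577. *Apoa1* is among the markers by which the top zone was named, so its level there is no separate result. The carriers under 100 UMIs, which include albumin and the vitamin D-binding protein *Gc*, held 2 UMIs in all in enterocyte-like cells. In ROBO over WT, 1 lysosome gene (*Ctsl*) and 1 uptake receptor gene (*Cd36*, 0.68, 0.20 to 1.17) were at least 1.5-fold higher among the 55 genes counted in these 6 lists and none was 1.5-fold lower, where 1.96% of all 3921 genes were higher and 3.83% lower. Within zones the *Cd36* log2 ratio was 0.43 (-0.22 to 1.11) in top and 0.19 (-0.75 to 1.15) in Lct-led cells, below 1.5-fold in both. The lists were chosen with earlier results of these data known, so the counts are descriptions.

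**Figure D5:**
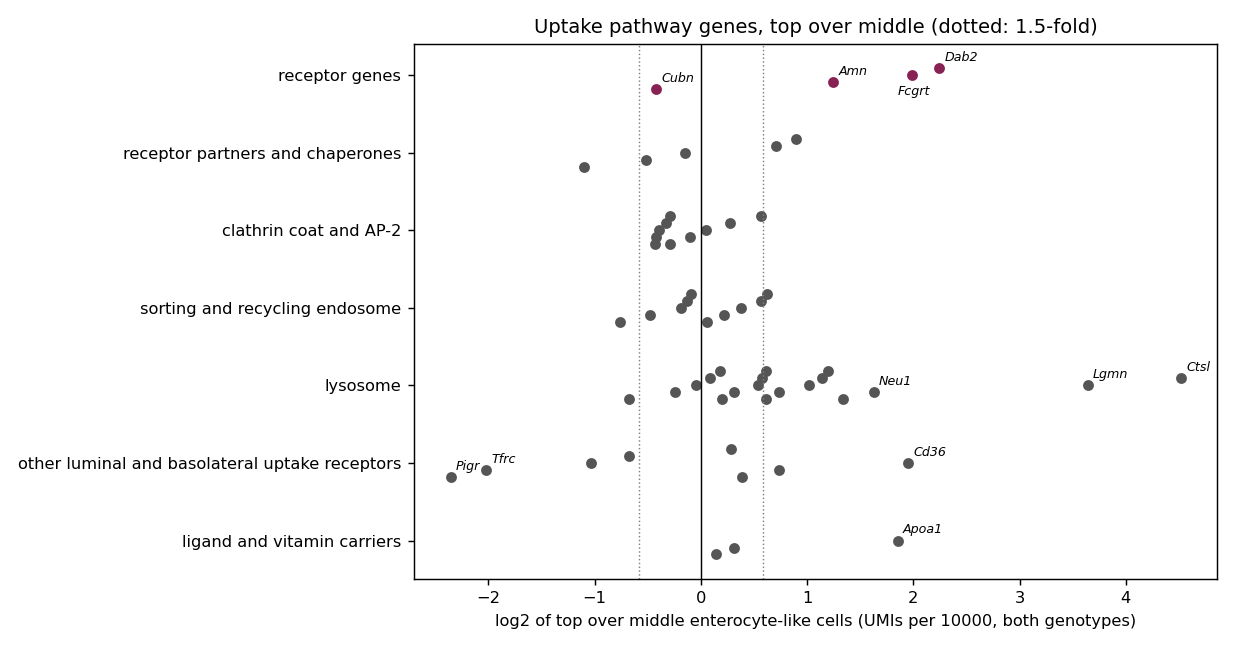
The log2 ratio of top over middle enterocyte-like cells (horizontal axis, both genotypes) of the 4 detected members and of the genes with at least 100 UMIs in 6 lists (rows). Points are genes and dotted lines mark 1.5-fold. *Dab2*, *Fcgrt* and *Amn* lie right of 1.5-fold with *Ctsl*, *Lgmn* and *Neu1*, *Cubn* lies at -0.42, and the clathrin coat genes lie between the dotted lines.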

How the data were processed

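Crypts from mice at postnatal day 16 were dissociated and single cells were encapsulated on ddSEQ cartridges, with libraries made by the SureCell 3′ kit. The authors used BaseSpace to make the raw counts of UMIs per gene and cell, deposited as 1 matrix per genotype, and the submitters' processing notes name mm10 and GRCm38. The aligner and the use of strand are not given in the sources used here. Cells carry only a genotype and a serial number, so the 8 samples of a genotype could not be separated, and barcodes shared between libraries could not be counted.

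Counts were clustered in Seurat 5.3.0 (R 4.3.3) after normalisation to 10000, with 13201 genes found in at least 3 cells, 2000 variable genes without the 5 members, phase scores from 43 S and 52 G2M genes regressed, 20 principal components and resolution 0.8. Clusters were named from marker lists by mean log2 fold (0.1 added) where at least 3 markers were raised. The final form of that rule, the separation of 8 cells with at least 5 of 13 fibroblast markers, and the division of the middle zone into its 2 clusters were set after seeing the clusters. The doublet caller of scanpy 1.11.5 marked 1 WT cell (0.0742%) and 4 ROBO cells (0.320%), so it did not work as a filter and no cell was removed. Levels are summed UMIs per 10000, with exact Poisson intervals, and ratios have conditional exact intervals (scipy 1.17.1). Shares have exact Clopper-Pearson intervals. A fold of 1.5 among genes with at least 100 UMIs marked a difference, and 3 counts were the limit for a count of 0. Named genes were the 5 members, the 5 nearest genes by correlation, the 5 leading genes per zone, the 2 highest and 2 lowest of each list by top over bottom or ROBO over WT, and *Lct* and *Sis*. Genes named beside a cell-type check were added after their values were seen. The ratio code was tested on simulated counts. The 5 members and all lists were chosen with earlier results of these data known. Promoter sequences are from RefSeq, in which all 5 genes were matched.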

Additional observations from a re-analysis of the deposited data

How the results depend on the processing

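The results were recomputed under 16 settings. Of 386 values of the 31 zone and genotype log2 ratios under the alternatives, 357 moved by less than their counting interval, 29 moved further and 0 called values changed sign. No paired analysis was possible because each genotype is 1 pooled matrix whose cells carry no replicate number, and no replicate could be left out for the same reason. For ROBO over WT over all enterocyte-like cells, *Fcgrt* (0.33) was 0.45 with the pathway lists also left out of clustering, 0.41 with called doublets removed, 0.19 at resolution 0.5 and 0.0475 with each cluster given the same weight. *Cubn* (0.22) was -0.0949 at resolution 0.5 and -0.0370 with at least 500 genes per cell, and *Dab2* (0.17) was -0.15 with each cluster given the same weight. In Lct-led cells *Fcgrt* (0.06) was 0.17 with the members included in clustering and 0.17 with the pathway lists left out. For top over middle, *Fcgrt* (1.99) was 2.07 with the pathway lists left out, 1.85 without regression of phase, 2.08 with at least 500 genes per cell, 2.18 when scaled without the 50 most abundant genes, 1.71 with each cell given the same weight, 2.40 by 5 equal groups along the score and 2.11 with the Cxcl10-led cluster counted as middle, a choice made after seeing the data, and *Dab2* (2.24) was 3.03 by these groups. For middle over bottom with 30 principal components, *Cubn* was 6.72, *Amn* 1.04, *Dab2* 5.01 and *Fcgrt* 3.65. With at least 500 genes per cell *Amn* was 1.06 and *Fcgrt* 3.62, with doublets removed *Cubn* was 8.01 and *Dab2* 6.28, and by the score groups *Dab2* was 4.36 and *Fcgrt* 3.76. With each cell given the same weight, Lct-led over Sis-led was 0.68 for *Amn* and 7.60 for *Dab2*. Resolution 0.5 gave no bottom zone and so no ratios to it. The cause of these moves was not tested. *Cubn* and *Dab2* ratios to bottom cells rest on counts of 0 or nearly 0 there, and depth limits the shares of cells and the joint detection of genes.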

Other observations

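Genes that mark suckling and weaning enterocytes lay at different zones beside the receptor genes. On the list of suckling genes, the transcription factor gene *Maf* had 1.51 UMIs per 10000 in bottom, 2.57 in Sis-led, 6.83 in Lct-led and 6.12 in top cells. The carbamoyl phosphate synthetase gene *Cps1*, also on that list, took the reverse course, with 17.4 in bottom and 2.16 in top cells. *Cps1* is among the markers by which the bottom zone was named, so its level there is no separate result. All 4 counted weaning genes were at least 1.5-fold lower in top than in middle cells, with a median log2 ratio of -4.71, where 39.1% of all genes were. In top cells *Sis* had 1 UMI, *Arg2* 4, *Mgam* 14 and *Aldh1a1* 2. All 4 passed the UMI filter only through cells outside the top zone, so the filter fixed their direction. The count of 4 is therefore no support beside the 39.1%. *Sis* and *Aldh1a1*, 2 of the 4, are leading genes of the Sis-led cluster within the middle zone, so their levels there are no separate result. The level of *Sis* per 10000 UMIs was 23.8 in Sis-led, 0.143 in Lct-led and 0.0317 in top cells, and that of the maltase-glucoamylase gene *Mgam* 17.9, 2.57 and 0.444.

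On the list of 8 ileal genes, *Fabp6* had 1 UMI and *Slc10a2* 0 UMIs in enterocyte-like cells, while *Clec2h* had 2190, *Slc51a* 929, *Nr1h4* 283, *Slc51b* 206, *Osr2* 101 and *Fgf15* 42. On the list of 8 jejunal genes, *Fabp1* had 6939 and *Fabp2* 10360. *Gata4*, a jejunal transcription factor gene, was counted 106 times in WT enterocyte-like cells and 54 times in those of ROBO, a log2 ratio of -0.99 (-1.49 to -0.50). It was the 1 gene of the 8 that was at least 1.5-fold lower in ROBO, none was 1.5-fold higher, and the median log2 ratio of the list was 0.13. Within Lct-led and top cells the *Gata4* intervals held 0, with -0.60 (-1.69 to 0.46) and 0.53 (-1.70 to 3.15). Bottom cells held 97 of its 160 UMIs, and their ratio is not given here. The zones shown therefore do not tell where the difference lay. No test between genotypes was possible.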
